A study of Sus scrofa with 4 samples.

Results

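The 8 genes described here encode enzymes that act on retinol and retinal, make retinoic acid or break it down: RDH10, RDH12, DHRS3, ALDH1A1, ALDH1A2, ALDH1A3, CYP26A1 and CYP26B1. They were taken by gene symbol, 8 of the 31908 features listed in the files, and all 8 were found. Their unique molecular identifiers (UMIs, each standing for 1 captured RNA molecule) were followed across cell types of the pig testis and across age. In the cells used they came to 93991 UMIs.

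The samples were suspensions of whole testis cells from pigs (Sus scrofa) aged 7, 30, 60 and 90 days, with 1 library per age and no treatment named in the labels. The labels name no breed and do not say how many animals each suspension held. Each library was made with droplet 3′ chemistry (10x Chromium, version 3). With 1 library per age, age and library cannot be told apart, no test between ages was possible, and every interval below is a 95% interval that covers counting error only.

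Retinoic acid is made from retinol (vitamin A alcohol) in consecutive oxidations. Retinol dehydrogenases turn retinol into retinal, a step that other dehydrogenases run backwards, and retinaldehyde dehydrogenases then turn retinal into retinoic acid, which cannot be turned back. Cytochromes of the CYP26 family hydroxylate retinoic acid and so end its action. In the mouse testis retinoic acid is known for starting meiosis and the differentiation of spermatogonia, and Cyp26b1 for keeping retinoic acid away from fetal germ cells.

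RDH10 (ENSSSCG00000033669, chromosome 4, positions 62569877 to 62600981) oxidises retinol to retinal. RDH12 (ENSSSCG00000002297, chromosome 7, 91481238 to 91493838) interconverts the same compounds and acts chiefly as a reductase of retinal. DHRS3 (ENSSSCG00000003439, chromosome 6, 72556234 to 72599233) also reduces retinal to retinol. The retinaldehyde dehydrogenases all lie on chromosome 1, with ALDH1A1 (ENSSSCG00000028996) at 226163347 to 226217342, ALDH1A2 (ENSSSCG00000025578) at 113932722 to 114037059 and ALDH1A3 (ENSSSCG00000004822) at 139451080 to 139491514. CYP26A1 (ENSSSCG00000010475) lies on chromosome 14 at 104561394 to 104567099, and CYP26B1 is listed as ENSSSCG00000008311. Gene positions are those of RefSeq on build Sscrofa11.1.

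The files held 15896, 19373, 16839 and 17494 cell barcodes at 7, 30, 60 and 90 days, 69602 in all, where the labels speak of 86453 captured cells. Filters left 55798 cells, and 48923 remained after predicted doublets were removed. The share removed as doublets was 5.59% to 10.3% in the other libraries and 28.8% at 60 days. Between 108 and 175 barcodes of each library also occurred in another. Cells were sorted into classes by clustering and marker genes, and a class is called by the cell type whose markers it holds, with "-like" added. Levels are CPM, the UMIs of a gene per 1000000 UMIs of the class. The summed level of the Sertoli markers was 2674 to 8225 CPM in Sertoli-like cells against 386 to 1254 in the others. The summed Leydig markers stood at 20601 to 65543 CPM against 105 to 639, the myoid markers at 2214 to 21754 CPM against 641 to 1087, and no marker was at 0 in its own class. Not every marker was higher than in the other cells. Of Sertoli markers 9 of 10 were at 7 and 60 days, and of myoid markers 6 of 8 at 7 days and 7 of 8 at 60. Of interstitial stromal markers 7 of 8 were at 60 days. At the other ages of these classes, and for Leydig and endothelial markers at every age, all were. At 60 days 2842 shallow cells carried markers of neutrophils and of spermatocytes together, and they are left unnamed with 12 cells of another mixed cluster. They held 16.9% of that library's UMIs and between 11.9% and 19.7% of the UMIs of RDH10, RDH12, DHRS3, CYP26B1 and each ALDH1A gene.

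RNA that leaks from broken cells enters every droplet, so T or NK-like cells, lymphocytes taken to lack these enzymes, served as the measure of that background. Their ALDH1A1 level was 169 CPM [144 to 199] at 90 days, and their RDH12 level was 31.2 CPM [20.01 to 46.5] at 7 days. Of the 11 other classes 10 lay below them for ALDH1A1 at 90 days, and 8 of 9 for RDH12 at 7 days. They were also shallow, with median depths of 2791, 1381, 1561 and 1264 UMIs. Their level can therefore be above the background of deeper classes, and a class not above it may still hold the gene. Among 37 units (a class at an age, with at least 100 cells), a gene stood above the T or NK-like level of its library in 24 units for RDH10 and ALDH1A2, 18 for DHRS3 and 15 for ALDH1A3. For CYP26B1 it did so in 11, for ALDH1A1 in 7, for RDH12 in 3 and for CYP26A1 in none.

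**Figure D1:**
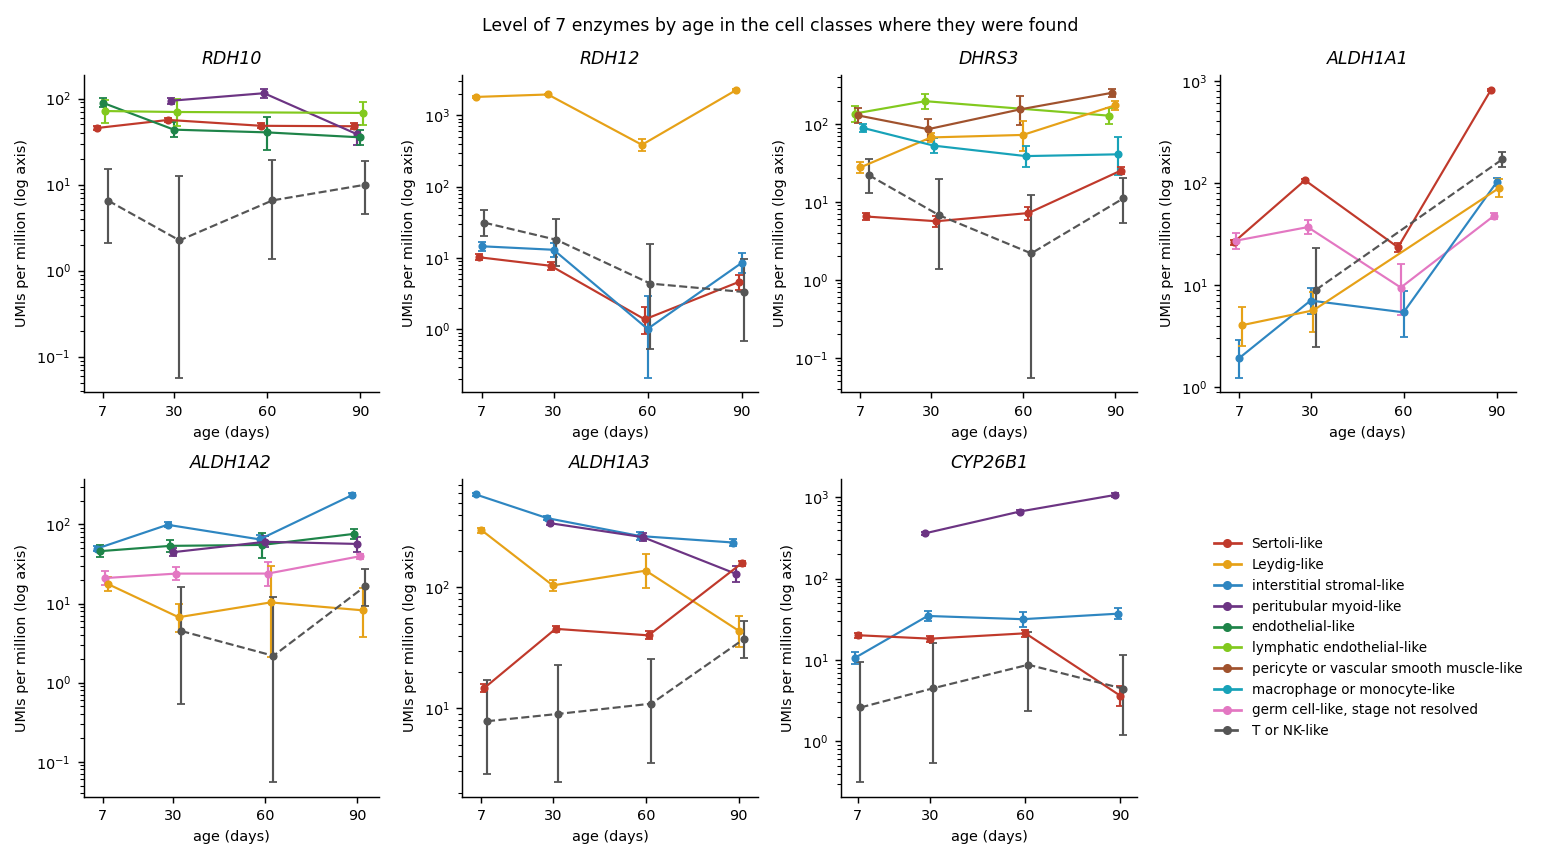
Level of 7 of the enzymes, in CPM on a log axis, against age in days, for selected cell classes with at least 50 cells. Bars are 95% Poisson intervals and the dashed line is the T or NK-like level; RDH12 is highest in Leydig-like cells, and CYP26B1 in myoid-like cells from 30 days.

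RDH10, the enzyme that makes most of the retinal needed by mouse embryos, was spread over Sertoli-like, interstitial stromal-like, endothelial-like, lymphatic endothelial-like and myoid-like cells. Stromal-like cells held 33.4, 31.0, 42.1 and 24.0 CPM of RDH10 at 7, 30, 60 and 90 days, each above T or NK-like cells. Pericyte or vascular smooth muscle-like cells stood above them at 30 days but not at 7 or 90 days. In Sertoli-like cells it was level with age, at 45.4 CPM [43.5 to 47.4], 56.4, 48.2 and 47.6 [44.1 to 51.3] at 7, 30, 60 and 90 days. The log2 ratio of 90 over 7 days was 0.07 [-0.06 to 0.19] there, and it was -0.49 with TMM factors, a scaling that allows for a few abundant genes taking up many reads. Endothelial-like cells went from 89.4 CPM [78.9 to 101] through 43.5 and 40.4 to 35.4 [28.6 to 43.3]. That is a log2 ratio of -1.34 [-1.69 to -0.99], and the 30-day interval already lay below the 7-day one. RDH10 was detected in 27.1% of endothelial-like cells at 7 days and in 10.5% at 90 days, at median depths of 4191 and 2518 UMIs. After each cell was thinned to 2000 UMIs, with 361 and 514 cells left, these shares were 14.96% and 7.39%. In T or NK-like cells the unthinned shares were 2.51% and 1.44%, at medians of 2791 and 1264 UMIs.

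In lymphatic endothelial-like cells, 39 to 202 per library, RDH10 stood at 71.5, 69.7, 94.98 and 68.0 CPM over the 4 ages, with intervals that overlapped throughout. Peritubular myoid cells form a contractile sheath on the tubule wall. The myoid-like class held 94.2 CPM [87.2 to 102] at 30 days, 115 [102 to 129] at 60 and 38.5 [29.1 to 49.8] at 90 days. The 90-day interval lay below the other 2, with a log2 ratio to 30 days of -1.29 [-1.71 to -0.90]. The ratio compares unlike clusters. The 30-day cells were cluster 2, with a score of 2.49 for myoid and 2.44 for stromal markers. Of the 655 cells at 90 days, 647 were cluster 21. The part of this difference in the ratio was not tested. Only 35 myoid-like cells were found at 7 days, so the 90-day level of this class is set against 30 days. Sertoli-like cells held 68.5% of the RDH10 UMIs at 7 days and 45.2% at 90 days, while their share of all UMIs went from 54.5% to 27.6%.

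RDH12, best known for reducing retinal to retinol in photoreceptors, lay mostly in Leydig-like cells, the steroid-making cells between the tubules. It stood there at 1811 CPM [1775 to 1847] at 7 days, 1960 [1916 to 2006] at 30, 386 [318 to 464] at 60 and 2251 [2163 to 2342] at 90 days. The 60-day library was low and the other 3 lay within 1.24-fold of each other, with a log2 ratio of 90 over 7 days of 0.31 [0.25 to 0.38] that turned to -0.28 with TMM factors. Leydig-like cells made up 0.89% to 6.43% of the UMIs of a library and held 91.9%, 92.8%, 59.6% and 90.6% of its RDH12 UMIs. RDH12 was among the leading genes of their cluster, although it was left out when the cells were clustered, so this concentration is a description.

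RDH12 was detected in 92.8%, 93.5%, 48.6% and 94.3% of Leydig-like cells, and in 85.3%, 87.8%, 43.8% and 91.2% of those thinned to 2000 UMIs. In T or NK-like cells the share was at most 6.03%. In the other classes with at least 100 cells the levels were 4.83 to 23.7 CPM at 7 and 30 days, none above T or NK-like cells. The dip at 60 days rested on 74 Leydig-like cells and 112 RDH12 UMIs, and other ways of choosing cells put the 60-day level between 104 and 427 CPM.

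Other Leydig genes were low in those 74 cells too. INSL3, the hormone that draws the testis downwards, read 43688, 45246, 12617 and 20991 CPM over the 4 ages. CYP17A1, an androgen-making enzyme, read 12024, 14646, 5215 and 8820 CPM. LHCGR, the receptor for luteinising hormone, went the other way with 403, 329, 778 and 336 CPM. Per 100 UMIs of 6 Leydig markers, Leydig-like cells held 2.80 RDH12 UMIs at 7 days, 2.99 at 30, 1.87 [1.54 to 2.26] at 60 and 6.75 [6.47 to 7.03] at 90. Relative to those markers RDH12 was thus highest at 90 days, and its 60-day interval still lay below the rest. INSL3 alone gave 238218 of the 352452 marker UMIs at 7 days and 23020 of 36592 at 90 days. The ratio therefore mainly sets RDH12 against INSL3.

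RDH11, a paralog 28707 bases from RDH12, was measured apart from it. It read 645, 688, 462 and 780 CPM in Leydig-like cells, and in Sertoli-like cells, where RDH12 was at 1.37 to 10.2 CPM, RDH11 stood at 132 to 193.

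DHRS3, which returns retinal to retinol and is itself induced by retinoic acid in several tissues, was not led by the same class at each age. Among classes with at least 100 cells, pericyte or vascular smooth muscle-like cells led at 7 and 90 days, with Leydig-like cells second at 90. Lymphatic endothelial-like cells led at 30 days, and had 94 cells at 7 days and 39 at 60. At 60 days interstitial stromal-like cells led at 47.5 CPM, with an interval overlapping that of macrophage or monocyte-like cells. Lymphatic endothelial-like cells held 136 CPM [108 to 170], 196 [158 to 241], 145 [97.1 to 208] and 128 [101 to 160] over the 4 ages. Every neighbouring pair of these intervals overlapped. Pericyte or vascular smooth muscle-like cells held 129, 85.7, 154 and 251 CPM, and the class was made of unlike clusters. Cluster 26, led by contractile genes such as MYH11, read 241 CPM at 7 days, 180 at 30 and 471 at 90. Cluster 22, led by pericyte genes such as RGS5, read 39.5, 10.7 and 23.4. MYH11 belongs to the myoid markers, so cluster 26 is given by its number.

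In Leydig-like cells DHRS3 was lowest at 7 days, at 27.7 CPM [23.5 to 32.5], then 67.1 and 72.3, and highest at 90 days, at 173 [149 to 200]. The log2 ratio of 90 over 7 days was 2.65 [2.33 to 2.96], and the intervals at 30 and 60 days overlapped. In Sertoli-like cells it read 6.49, 5.65, 7.19 and 25.1 CPM, with a log2 ratio of 1.95 [1.73 to 2.18] that lay wholly in the last step. T or NK-like cells held 22.1, 6.74, 2.18 and 11.08 CPM. In macrophage or monocyte-like cells, which take up and clear cell remains, DHRS3 went from 89.0 CPM [79.8 to 98.9] at 7 days to 52.7, 38.7 and 40.8 [22.3 to 68.4]. Endothelial-like cells went from 35.4 to 9.04 CPM, a log2 ratio of -1.97 [-2.67 to -1.32], with the 7-day value not above T or NK-like cells. The ratio was -0.76 with each cell gated on its own markers, under 2-fold.

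ALDH1A1, the retinaldehyde dehydrogenase of mature mouse Sertoli cells, was highest in Sertoli-like cells at 30, 60 and 90 days. Its level in Sertoli-like cells was 26.1 CPM [24.7 to 27.6] at 7 days, 106 [102 to 110] at 30, 23.4 [21.1 to 25.9] at 60 and 815 [800 to 830] at 90 days. The class was made of different clusters at different ages, and clusters 3, 4, 7 and 9 had a marker of another cell type among their 10 leading genes with no Sertoli marker there. The comparison was therefore repeated by cluster. The 4 clusters with at least 50 cells at 7 days ranged from 19.4 to 69.8 CPM, the 5 at 30 days from 64.0 to 133 and the 4 at 60 days from 10.2 to 24.6. Cluster 9, which held nearly all Sertoli-like cells at 90 days, read 816 CPM, above every earlier cluster.

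ALDH1A1 was detected in 12.1%, 28.4%, 8.25% and 74.1% of Sertoli-like cells, at median depths of 5609, 3724, 5487 and 5396 UMIs. In cells thinned to 2000 UMIs the shares were 4.43%, 16.2%, 3.24% and 72.8%. At 90 days 21.9% [18.7 to 25.3] of T or NK-like cells also held an ALDH1A1 UMI, at a median depth of 1264 UMIs. Every other named class with at least 100 cells at 90 days lay between 47.4 and 120 CPM, below the T or NK-like level of 169, as the plot of ALDH1A1 at 90 days shows.

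Per 100 UMIs of the 10 Sertoli markers, Sertoli-like cells held 30.5 ALDH1A1 UMIs [29.9 to 31.1] at 90 days and T or NK-like cells 30.4 [25.2 to 36.4]. The intervals overlapped, so relative to Sertoli markers the gene was as frequent in a class taken to lack it. The other classes held 13.7 to 26.1 per 100 at that age. ALDH1A1 past 2-fold between 7 and 90 days in Leydig-like, stromal-like and endothelial-like cells is therefore within what T or NK-like cells showed. The part of leaked RNA in those ratios was not tested.

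**Figure D2:**
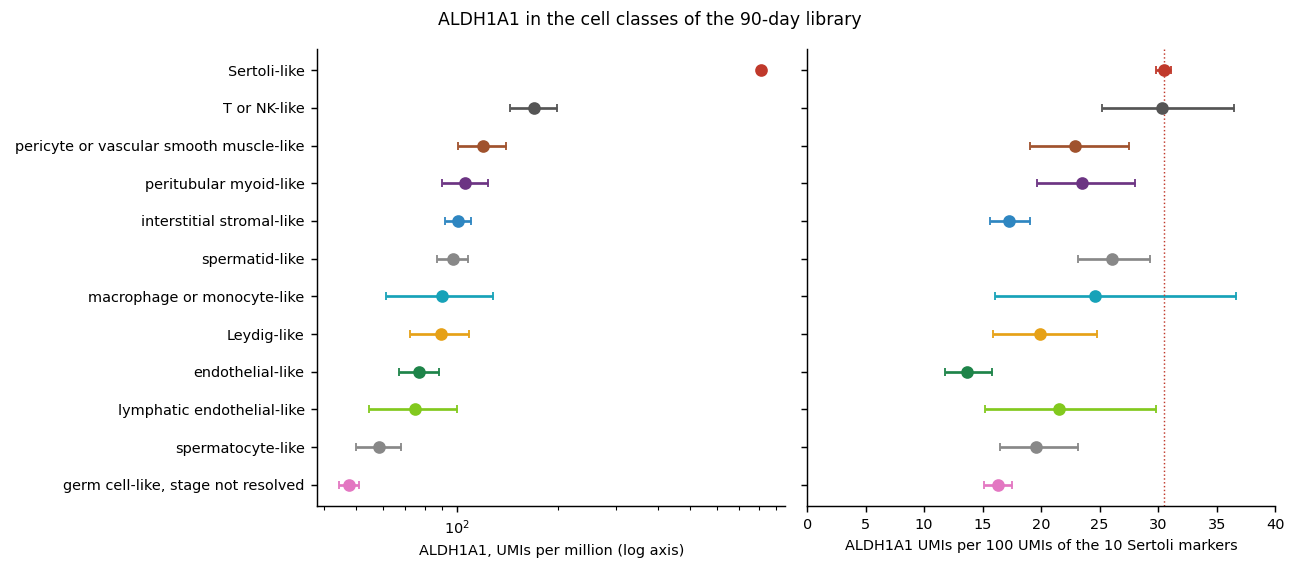
ALDH1A1 at 90 days by cell class: level in CPM (left) and ALDH1A1 UMIs per 100 UMIs of the 10 Sertoli markers (right), each with its 95% interval. Sertoli-like cells lead at 815 CPM, while per Sertoli marker UMI the T or NK-like value of 30.4 matches the Sertoli-like value of 30.5 drawn as a dotted line.

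A class at the younger ages did not share that ratio. Germ cell-like cells whose stage could not be resolved held 27.2 ALDH1A1 CPM [22.6 to 32.4] at 7 days and 36.8 [31.4 to 42.9] at 30 days. T or NK-like cells held 0 ALDH1A1 UMIs at 7 days, with an interval of 0 to 4.80 CPM, and 8.98 CPM at 30 days. Per 100 Sertoli marker UMIs these germ cell-like cells carried 5.78 and 11.13 ALDH1A1 UMIs, against 0.32 and 1.53 in Sertoli-like cells.

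ALDH1A2, which makes most retinoic acid in the mouse embryo, was also found in vessel and germ cell classes. Among classes with at least 100 cells it was highest in interstitial stromal-like cells at each age. Their interval stood clear of every other such class at 30 and 90 days only. At 7 days it overlapped that of endothelial-like cells, and at 60 days those of myoid-like and endothelial-like cells. Stromal-like cells read 49.5 CPM [45.7 to 53.6], 99.0 [91.6 to 107], 64.7 [55.9 to 74.5] and 233 [220 to 248]. The 90-day library was the highest and the 7-day library the lowest, with a log2 ratio of 2.24 [2.09 to 2.38]. The leading clusters were in the same order, with 50.4 CPM in cluster 5 at 7 days, 112 in cluster 8 at 30, 64.6 in cluster 18 at 60 and 235 in cluster 11 at 90. The share of stromal-like cells with an ALDH1A2 UMI was 14.3%, 18.4%, 13.3% and 36.7%, against at most 2.24% of T or NK-like cells.

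Endothelial-like cells held 45.9, 53.6, 55.1 and 76.1 ALDH1A2 CPM, a log2 ratio of 0.73 [0.41 to 1.05] that fell short of 2-fold. Myoid-like cells read 44.6, 60.3 and 56.7 CPM from 30 days on. Germ cell-like cells of unresolved stage held 21.0, 23.9, 23.9 and 39.6 CPM, each above T or NK-like cells. Spermatocyte-like cells, found at 90 days, held 90.3 CPM [79.6 to 102] and spermatid-like cells 57.0 [49.6 to 65.3], against 16.6 [9.30 to 27.4] in T or NK-like cells. In Sertoli-like cells ALDH1A2 was 1.84, 1.71, 13.3 and 9.34 CPM, and the 90-day value was not above the T or NK-like level. In Leydig-like cells it went from 17.6 to 8.21 CPM, a log2 ratio of -1.10 [-2.27 to -0.12] on 96 and 9 UMIs that lay between -0.38 and -0.88 under 4 other settings.

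ALDH1A3, the retinaldehyde dehydrogenase known from the developing eye and nose of mice, was lower at the later ages in the interstitium and higher in Sertoli-like cells. Stromal-like cells held 588 CPM [575 to 602] at 7 days, 375 [360 to 390] at 30, 266 [248 to 285] at 60 and 235 [222 to 250] at 90. Each library was lower than the one before, and the log2 ratio of 90 over 7 days was -1.32 [-1.41 to -1.23]. The gene was detected in 74.9% of stromal-like cells at 7 days and 35.8% at 90 days, and in 62.3% and 35.1% of those thinned to 2000 UMIs. Leydig-like cells went from 298 CPM [284 to 313] to 104, 138 and 43.8 [32.3 to 58.0]. Their log2 ratio was -2.77 [-3.21 to -2.35], and the 90-day value was close to the T or NK-like 37.7 CPM. Myoid-like cells held 340 CPM at 30 days, 261 at 60 and 130 [112 to 149] at 90. Their log2 ratio of 90 over 30 days was -1.39 [-1.61 to -1.18], and -0.93 with each cell gated on its own markers. As for RDH10, the main ratio sets cluster 2 against mostly cluster 21.

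Sertoli-like cells went the opposite way, with 14.7 CPM [13.6 to 15.8], 45.4 [42.9 to 48.0], 40.1 [37.1 to 43.3] and 158 [152 to 165]. The 30- and 60-day intervals touched, the 7-day library was lowest, and the log2 ratio of 90 over 7 days was 3.43 [3.30 to 3.55]. By cluster the 7-day range was 8.73 to 14.9 CPM and cluster 9 read 158 at 90 days. The share of Sertoli-like cells with an ALDH1A3 UMI was 8.95% at 7 days and 45.8% at 90 days, or 2.91% and 26.9% in thinned cells. Stromal-like cells held 73.2% of all ALDH1A3 UMIs at 7 days and 26.5% at 90 days, while Sertoli-like cells went from 6.77% to 54.4%. In T or NK-like cells the level was 7.81, 8.98, 10.9 and 37.7 CPM.

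CYP26B1, the breakdown enzyme of the fetal mouse testis, was held by myoid-like cells from 30 days on. Their level was 359 CPM [345 to 373] at 30 days, 666 [635 to 698] at 60 and 1063 [1012 to 1117] at 90. The libraries were in this order without overlap, and the log2 ratio of 90 over 30 days was 1.57 [1.48 to 1.66]. Cells with a CYP26B1 UMI made up 48.0%, 67.6% and 77.7% of myoid-like cells, and 44.8%, 61.4% and 78.8% after thinning, against at most 1.88% of T or NK-like cells. The 30- and 60-day cells formed cluster 2, which carried stromal markers almost as strongly as myoid markers, and the 90-day cells formed cluster 21, with 1074 CPM. CYP26B1 was among the leading genes of cluster 2, although it was left out of the clustering. The summed myoid markers were 4805 CPM at 30 days and 21754 at 90 days in the same cells, and their part in the result was not tested.

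At 7 days 78.7% of the CYP26B1 UMIs lay in Sertoli-like cells, at a level of 20.1 CPM [18.9 to 21.5]. The 35 myoid-like cells of that library held 5 UMIs, a level of 53.2 CPM [17.3 to 124], so the later shares also follow how many cells of each class were found. Sertoli-like cells read 18.2 CPM at 30 days and 21.2 at 60 days. At 90 days they read 3.62 [2.71 to 4.75], which is within the T or NK-like interval of 1.21 to 11.3. Their share of the UMIs was then 2.68%, and that of myoid-like cells 81.1%. By cluster, 7-day Sertoli-like cells ranged from 15.9 to 34.9 CPM. Stromal-like cells held 10.6 CPM [8.85 to 12.54] at 7 days and 34.7, 31.7 and 37.0 [31.7 to 42.9] later, a log2 ratio of 90 over 7 days of 1.81 [1.47 to 2.14]. Within them cluster 24 read 140 CPM at 30 days where cluster 8 read 16.2.

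CYP26A1, the breakdown enzyme that retinoic acid induces in the liver and the embryo, had few counts, with 38 UMIs in all, 16 at 7 days, 6 at 30, 5 at 60 and 11 at 90 days. Of these, 12 at 7 days and 4 at 30 days were in germ cell-like cells of unresolved stage, at 2.65 CPM [1.37 to 4.63] and 0.89 [0.24 to 2.29]. T or NK-like cells held 0 UMIs at 7 days, but their interval of 0 to 4.80 CPM spans 2.65. The class was too small to place that value above or within background. Sertoli-like cells held 0 UMIs at 7 days, with an interval of 0 to 0.08 CPM. Stromal-like cells read 0.08 CPM [0.002 to 0.45], and both intervals lay below the germ cell-like one. It reached the 10 UMIs needed for a comparison in none of the 6 classes compared.

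**Figure D3:**
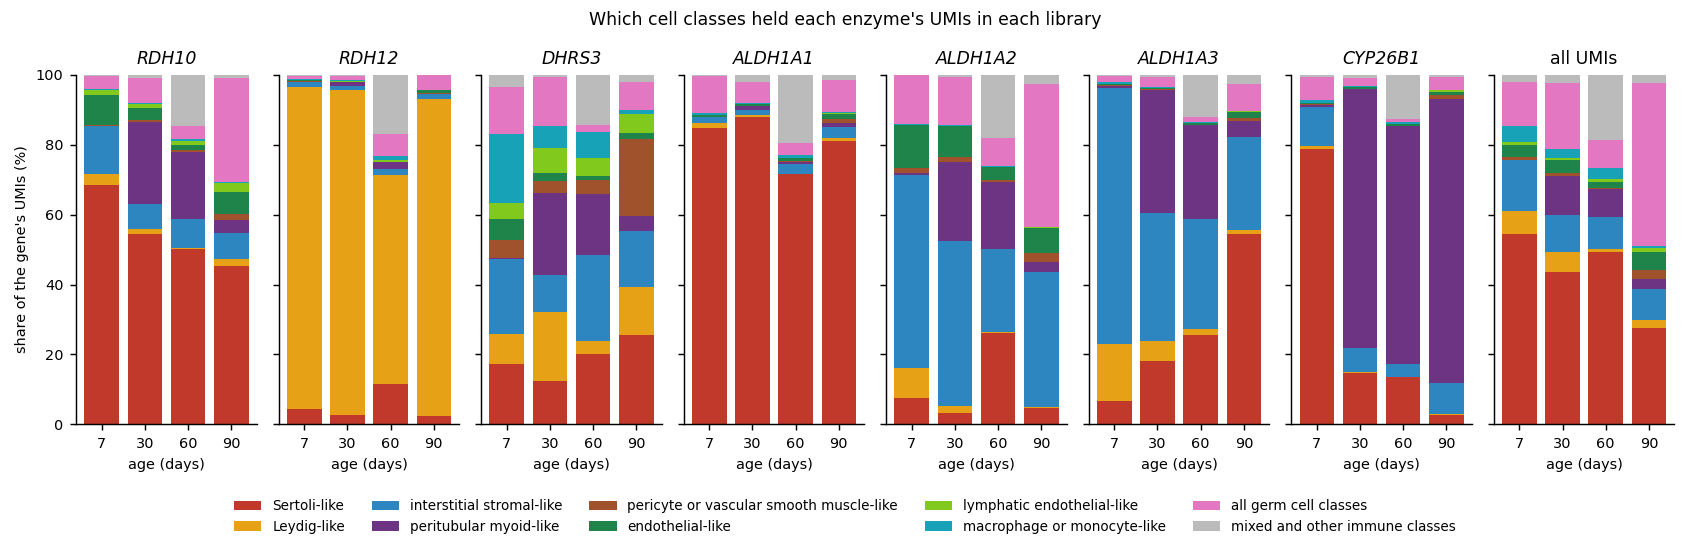
Share of each gene's UMIs, in percent, held by each cell class in each library, with the share of all UMIs in the last panel. RDH12 lies in Leydig-like cells in every library, and most CYP26B1 UMIs lie in Sertoli-like cells at 7 days, when 35 myoid-like cells were found, and in myoid-like cells from 30 days.

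The makers and the breakers of retinoic acid were set against each other by summing the 3 ALDH1A genes and the CYP26 genes in each class. A 3′ UMI count does not grow with gene length, but genes differ in how well their 3′ ends are captured and annotated, so the ratio is compared only between classes and ages. In Sertoli-like cells ALDH1A UMIs were 2.12 times the CYP26 UMIs at 7 days [1.96 to 2.29], 8.38 times at 30, 3.60 at 60 and 247 at 90 days [191 to 327]. In myoid-like cells the ratio went from 1.09 [1.03 to 1.15] at 30 days to 0.48 at 60 and 0.27 [0.25 to 0.31] at 90. The intervals of the 2 classes did not overlap at 30, 60 or 90 days. Stromal-like cells stood at 60.0, 13.8, 10.6 and 15.4, and T or NK-like cells between 1.5 and 5 at the first 3 ages and at 50.5 [19.4 to 187] at 90 days. The Sertoli-like CYP26 sum at 90 days was 57 UMIs, 3.97 CPM against 4.43 in T or NK-like cells. The ratio of 247 thus divides by a level not above theirs. Of the 433 ALDH1A UMIs of myoid-like cells at 90 days, 157 were ALDH1A1, at 106 CPM against 169 in T or NK-like cells.

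**Figure D4:**
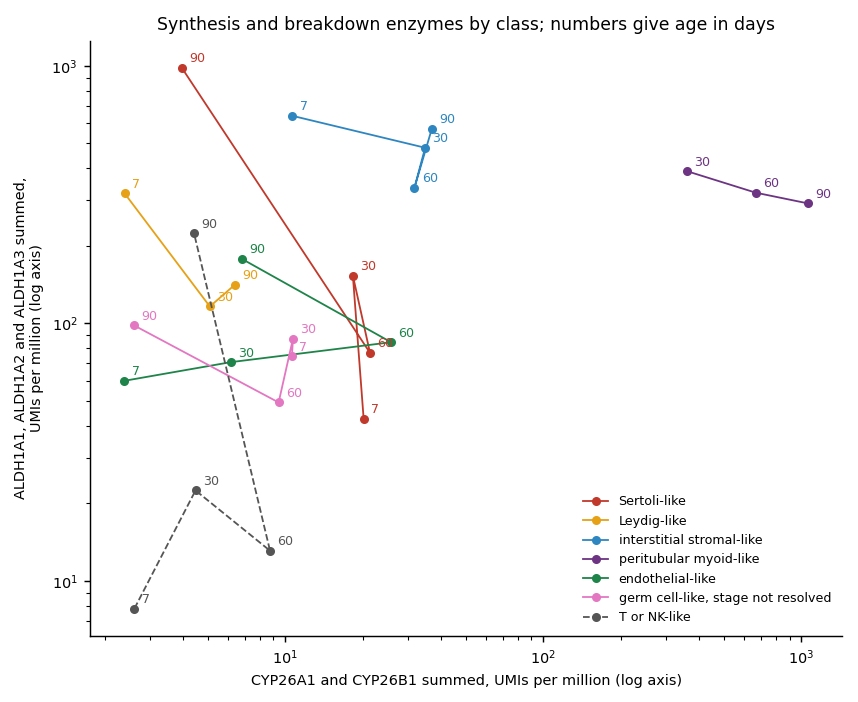
Summed ALDH1A level against summed CYP26 level, both in CPM on log axes, for selected classes at ages with at least 100 cells, labelled by age in days. Sertoli-like cells end at 983 against 3.97 CPM at 90 days and myoid-like cells at 292 against 1063.

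A member was called past 2-fold when its ratio was at least 2-fold, its interval excluded no change and the 2 libraries together held at least 10 UMIs. In Sertoli-like cells, 4 of 7 members compared were higher at 90 than at 7 days, where 34.0% of all features were, and 2 were lower, where 10.8% were. Without ALDH1A2 and RDH12, which were not above T or NK-like cells, 3 were higher (DHRS3, ALDH1A1 and ALDH1A3) and 1 lower (CYP26B1). In Leydig-like cells 2 of 7 were higher, against 25.7% of features, and 2 were lower (ALDH1A2 and ALDH1A3), against 5.77%. Of the higher ones DHRS3 stood above T or NK-like cells and ALDH1A1 did not. In stromal-like cells 3 of 7 were higher, against 29.9%, of which ALDH1A2 and CYP26B1 stood above T or NK-like cells, and 1 was lower (ALDH1A3), against 5.75%.

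Myoid-like cells, compared between 90 and 30 days, had 2 of 7 members higher, against 23.6% of features, and 3 lower, against 4.84%. CYP26B1 among the higher, and RDH10 and ALDH1A3 among the lower, stood above T or NK-like cells. Endothelial-like cells had 3 of 7 higher, against 23.6%, none of them above T or NK-like cells, and 2 lower, against 4.49%, of which RDH10 stood above. Spermatogonia-like cells, with 28 cells at 90 days, had 2 of 7 higher, against 11.6%, neither above T or NK-like cells. None was lower there, against 2.18% of features.

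The scale moved in the same libraries. The median log2 ratio of all features compared was 0.47 in Sertoli-like, 0.44 in Leydig-like, 0.48 in stromal-like, 0.37 in myoid-like, 0.31 in endothelial-like and 0.25 in spermatogonia-like cells. The members' medians were 1.95, 0.64, 0.68, -0.04, 0.73 and -0.06 in that order. TMM factors lowered every ratio by 0.29 (endothelial-like) to 0.59 (Leydig-like). The sign turned for RDH10 in Sertoli-like cells, RDH12 in Leydig-like cells, ALDH1A2 in myoid-like cells (0.35 to -0.16) and ALDH1A3 in spermatogonia-like cells (0.44 to -0.04), none of them past 2-fold.

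Between neighbouring ages, 11 of 42 pairs of a member and a class were higher at 30 than at 7 days. Of all feature and class pairs, 4.91% were. Another 4 pairs were lower, against 3.89%. These pairs include the myoid-like class, which had only 35 cells at 7 days. Not all of the 11 stood above T or NK-like cells at 30 days. Of the 3 for ALDH1A1, Sertoli-like cells did (106 CPM). Stromal-like cells (7.03) and the endothelial-like class (7.90) did not, against 8.98 in T or NK-like cells. Of the 4 for CYP26B1, myoid-like (359 CPM) and stromal-like cells (34.7) did. Endothelial-like cells (6.15) and the Leydig-like class (5.10) did not, against 4.49. The other higher pairs are not broken down here. From 30 to 60 days 4 of 42 were higher, against 9.52%, and 7 lower, against 3.06%. Of those 7, 4 were RDH12, which was lower at 60 days in Leydig-like, Sertoli-like, stromal-like and myoid-like cells, while T or NK-like cells held 18.0 CPM at 30 days and 4.37 at 60. From 60 to 90 days 14 of 39 were higher, against 15.2%, and 5 lower, against 5.99%. ALDH1A1 was higher in all 6 classes in that step, and Sertoli-like cells alone stood above the T or NK-like level at 90 days.

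The genes around these enzymes were taken as 3 lists. Of the 17 other retinoid enzymes, 11 were compared in Sertoli-like cells, with 2 higher (34.0% of all features were), 2 lower (10.8% were) and a median log2 ratio of 0.32 against 0.47 over all features. In Leydig-like cells 6 were compared and none passed, with a median of -0.03 against 0.44. Leydig-like cells held 1311 CPM at 7 days and 1938 at 90 days of RDH16, a dehydrogenase of retinol and of steroids. DHRS4, a carbonyl reductase that also acts on retinal, read 10743 and 8509 CPM there. DHRS4 was lower in Sertoli-like cells (102 to 36.1 CPM), stromal-like cells (205 to 102 CPM) and, from 30 days, myoid-like cells (130 to 64.1 CPM). The T or NK-like level was 191 CPM of DHRS4 at 7 days and 98.8 at 30 days. LRAT, which stores retinol as esters, was higher in Sertoli-like, stromal-like, myoid-like, endothelial-like and spermatogonia-like cells. It reached 6.78 to 12.4 CPM at 90 days, against 6.65 in T or NK-like cells.

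Of the 12 genes for retinoid binding, transport and receptors, 11 were compared in Sertoli-like cells, with 4 higher and 2 lower, where 34.0% and 10.8% of all features were. In Leydig-like cells 6 were compared, with 3 higher and 1 lower, where 25.7% and 5.77% were. The medians were 0.81 against 0.47 over all features, and 0.96 against 0.44. RXRA, a partner of the retinoic acid receptors, was higher in stromal-like cells, at 29.6 CPM at 7 days and 67.0 at 90. CRABP1, which carries retinoic acid, was past 2-fold higher in all 6 classes. T or NK-like cells held 372 CPM of it at 90 days, above the 164 to 282 CPM of the classes other than Sertoli-like cells.

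The 6 germ cell genes that respond to retinoic acid (STRA8 and MEIOSIN, which start meiosis, REC8 and SYCP3 of the meiotic chromosome axis, the receptor KIT and the splicing factor ESRP1) did not behave as 1 group. In Sertoli-like cells 4 of 4 compared were higher, where 34.0% of all features were, with a median log2 ratio of 2.80 against 0.47. Each was lower there than in T or NK-like cells, which held 12.2 CPM of STRA8, 47.6 of REC8, 15.5 of KIT and 78.7 of SYCP3 at 90 days. KIT, the receptor for stem cell factor, was lower at 90 than at 7 days in Leydig-like cells (184 to 10.0 CPM) and endothelial-like cells (237 to 45.6 CPM), where T or NK-like cells held 3.90 CPM at 7 days. It was lower in spermatogonia-like cells too (98.8 to 24.8 CPM, on 8 UMIs at 90 days). MEIOSIN was not among the listed symbols.

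Genes whose levels ran most like those of a member were sought over 41 units among 13150 genes, by Pearson's r of log2(CPM + 5). The units share libraries and depth, so r is a description. RDH12 ran with SULT2A1, RDH16 and DHRS4 (0.96 each), and CYP26B1 with DPEP1 (0.95), COL4A3 and COL4A4 (0.93 each). ALDH1A1 was closest to CLEC12B (0.94), AQP8 (0.92) and DEFB123 (0.91). For ALDH1A3 the nearest reported were NAALADL2 (0.86) and GRIA3 (0.85), and for ALDH1A2 they were COL12A1 (0.85), RUSC2 (0.84) and EPN2 (0.81). RDH10 was nearest to MRTFB and EFNA4 (0.84 each) and MBNL2 (0.81). DHRS3 had the weakest neighbours, among them VLDLR (0.72) and NUPR1 (0.68). Among the members themselves the highest r was 0.55, between RDH10 and CYP26B1.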

How the data were processed

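The deposited files hold raw UMI counts per gene and cell barcode from Cell Ranger 5.0.1, per the file headers. Build Sscrofa11.1 is named in the submitters' processing notes, and so are bcl2fastq and Scanpy 1.7.1. The totals were 96133720, 77992845, 45717373 and 64372068 UMIs at 7, 30, 60 and 90 days. Cells with at least 1000 UMIs, 500 genes and at most 15% mitochondrial UMIs were kept, Scrublet doublets removed per library, and 2000 variable genes, 30 principal components, 15 neighbours and Leiden clustering at resolution 1 (seed 0) gave 30 clusters (Scanpy 1.11.5, Python 3.11.15). The members and listed genes were left out of the variable genes. Clusters were named from 18 marker sets, with naming rules set after the data were seen. UMIs were summed per library and class. Intervals are exact Poisson (levels), conditional binomial (ratios) and Clopper-Pearson (shares). TMM factors came from edgeR 4.0.16 in R 4.3.3. The 15 other settings tried cover doublets, cell filters, clustering, gating, thinning, free RNA, scaling and thresholds. The ratio code was tested on simulated data.

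All members were described, and of the listed genes those past 2-fold, or the 3 largest ratios of a list and class. The members and gene lists were chosen with earlier results of these data known. No sequence is printed, and a few genes that the naming rule would include are not reported here.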

Additional observations from a re-analysis of the deposited data

Results flagged for a closer look

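In 3 cases a member moved past 2-fold in opposite directions in different classes between 7 and 90 days, with the higher value above the T or NK-like level of its library. For ALDH1A3 the log2 ratio in Sertoli-like cells exceeded that in Leydig-like cells by 6.20. For CYP26B1 stromal-like cells exceeded Sertoli-like cells by 4.28. For ALDH1A2 stromal-like cells exceeded Leydig-like cells by 3.34, but the Leydig-like ratio of -1.10 was under 2-fold in 4 other settings, between -0.38 and -0.88. With 1 library per age, none of these differences was tested.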

How the results depend on the processing

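Of 40 log2 ratios between the last and first libraries compared, 26 were past 2-fold. All 298 of their values under the alternatives kept their sign, and 286 stayed at least 2-fold. The 12 others were 4 for ALDH1A2 in Leydig-like cells (-0.38 with no doublet removal, -0.88 with the expected share of doublets removed, -0.64 with each cell gated on its own markers, -0.43 with thinned cells), 4 for ALDH1A3 in endothelial-like cells (0.54 to 0.97), and 1 each for RDH12 in Sertoli-like cells (-0.88 as a mean over cells), ALDH1A3 in myoid-like cells (-0.93 with gated cells), DHRS3 in endothelial-like cells (-0.76 with gated cells) and ALDH1A2 in spermatogonia-like cells (0.94 under the stricter cell filter). The causes were not tested. The spermatogonia-like comparison rests on 28 cells at 90 days, the Leydig-like values at 60 days on 74, and CYP26A1, with 38 UMIs, was too rare to compare. No paired analysis was possible because there is 1 library per age.

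ALDH1A1 in Sertoli-like cells at 90 days (815 CPM) was 798 with no doublet removal, 851 under the stricter filter, 793 with gated cells, 658 as a mean over cells, 775 with thinned cells and 874 with 10% free RNA subtracted. CYP26B1 in myoid-like cells at 90 days (1063 CPM) was 842 with no doublet removal, 735 with gated cells and 1177 with free RNA subtracted. RDH12 in Leydig-like cells at 90 days (2251 CPM) was 1958 with no doublet removal, 2378 with expected doublets removed, 1931 with gated cells and 2493 with free RNA subtracted. At 60 days (386 CPM) it was 284 with no doublet removal, 280 with expected doublets removed, 297 under the stricter filter, 262 at resolution 2, 251 with each library clustered alone, 104 with gated cells and 278 with the retinoid genes kept for clustering. ALDH1A3 in stromal-like cells at 7 days (588 CPM) was 493 with no doublet removal, 606 with expected doublets removed, 604 with thinned cells and 640 with free RNA subtracted.

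The Sertoli-like share of ALDH1A1 at 90 days (81.1%) was 74.5% with no doublet removal, 82.3% with expected doublets removed, 83.2% under the stricter filter, 79.1% with libraries clustered alone, 76.8% with gated cells, 74.1% as a mean over cells, 73.2% thinned and 87.1% with free RNA subtracted. The myoid-like share of CYP26B1 at 90 days (81.1%) was 78.6% with no doublet removal, 83.4% thinned and 88.3% with free RNA subtracted. The Leydig-like share of RDH12 at 90 days (90.6%) was 88.2% with no doublet removal, 91.9% with gated cells, 88.9% as a mean over cells, 93.9% thinned and 99.0% with free RNA subtracted. At 60 days (59.6%) it was 69.0% under the stricter filter, 70.7% at resolution 2, 71.3% with libraries clustered alone, 74.5% with gated cells, 71.3% with the retinoid genes kept and 77.3% thinned. The stromal-like share of ALDH1A3 at 7 days (73.2%) was 77.6% with expected doublets removed, 76.8% under the stricter filter, 75.2% at resolution 0.5, 72.0% with gated cells, 75.1% with the retinoid genes kept, 70.9% as a mean over cells, 85.5% thinned and 79.5% with free RNA subtracted.

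Counts past 2-fold moved too. Sertoli-like lower members (2) were 1 as a mean over cells or with free RNA subtracted. Leydig-like lower members (2) were 1 with no doublet removal, with expected doublets removed, with gated cells or thinned. Stromal-like lower members (1) were 2 with expected doublets removed, under the stricter filter, at resolution 0.5, with the retinoid genes kept or at 1.5-fold, and 3 with TMM factors. Endothelial-like lower members (2) were 1 with gated cells. Spermatogonia-like higher members (2) were 1 under the stricter filter, with free RNA subtracted, with TMM factors or at 50 UMIs, and 0 with the retinoid genes kept or thinned, and lower members (0) were 1 under the stricter filter or with libraries clustered alone and 3 with gated cells. From 7 to 30 days, the 11 higher pairs were 7 under the stricter filter or thinned and 5 with libraries clustered alone, and the 4 lower were 2 with gated cells, 10 with free RNA subtracted and 8 at 1.5-fold. From 30 to 60 days, the 4 higher were 2 with no doublet removal, at resolution 0.5 or thinned, 8 with expected doublets removed and 7 at resolution 2, and the 7 lower were 3 with free RNA subtracted. From 60 to 90 days, the 5 lower were 3 under the stricter filter or with the retinoid genes kept, 8 with libraries clustered alone and 9 with gated cells. Against 30 days, an alternative chosen after seeing the data, 16 were higher and 5 lower at 90 days.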

Other observations

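The unnamed cells of the 60-day library, 2854 of its 8533, read 39.8 CPM of RDH10, 5.48 of RDH12, 14.8 of DHRS3, 18.8 of ALDH1A1, 26.5 of ALDH1A2, 54.6 of ALDH1A3 and 57.7 of CYP26B1. Each of these lay between the levels of the named classes of that library.

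Erythroid-like cells, 29 at 7 days, held 79.3 CPM of ALDH1A3 [44.4 to 131] on 15 UMIs, and B-like cells, 119 at 7 days, held 54.4 CPM of DHRS3 [38.7 to 74.4] on 39 UMIs. T or NK-like cells of that library held 7.81 CPM of ALDH1A3 and 22.1 of DHRS3.

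Spermatogonia-like cells held RDH10, ALDH1A2 and DHRS3 at no more than 27.7 CPM at 7, 30 and 60 days. The ALDH1A genes summed to 23.6, 26.5 and 42.8 CPM there. At 90 days that sum was 77.5 CPM, on 25 UMIs in 28 cells. RDH10 read 9.78, 16.8 and 20.2 CPM at 7, 30 and 60 days, and ALDH1A2 read 9.78, 11.15 and 27.7. DHRS3 read 22.7, 15.2 and 3.36 CPM, and its 60-day value rested on 4 UMIs.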
